A study of Mus musculus with 7 samples.

Results

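Open chromatin was compared at 14240 promoter regions that were accessible in both Dll1+ and Dll1− tumor cells. These regions were chosen by the deposited peak rows themselves: rows of both peak lists that overlapped or touched were merged, and a merged region was kept when it held rows of both lists and its midpoint lay within 1000 bp of the start of a protein-coding transcript. They made up 11.9% of all 119215 merged regions and 18.0% of the 79153 regions with rows of both lists. Of the 16393 merged regions at promoters they made up 86.9%, and the others were 517 promoters with rows of the Dll1+ list only and 1636 with rows of the Dll1− list only. Because presence in both lists chose the regions, that presence is not a finding about them. The lists are compared below in the strength, width, summits and sequence of these regions, and counts of genes with such a promoter are given as descriptions beside the share of all genes.

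The study asked whether chromatin accessibility differs between mammary tumor cells with and without Dll1, a ligand of the Notch receptors, using ATAC-seq. In this assay a transposase cuts accessible DNA, so that reads pile up over open regions and a peak caller marks each local maximum as a summit. Tumors came from mice on a C57BL/6 background that carried both the MMTV-PyMT transgene, in which a mammary tumor virus promoter drives the polyoma middle T oncogene in mammary epithelium, and a Dll1-mCherry reporter built on a bacterial artificial chromosome. Cells with the markers CD45, CD31 and Ter119 were removed by sorting, and the remaining cells were split by mCherry into Dll1+ (mCherry positive) and Dll1− (mCherry negative) cells. Both groups therefore carry both transgenes, and a cell is Dll1+ only in so far as it makes the reporter. The Dll1+ list pools 3 samples and the Dll1− list pools 4 samples, from 4 tumors of which 3 gave both. With 1 pooled list for each group there is no replicate error, no p-value can be given, and every difference below describes these 2 lists.

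A promoter is the stretch of DNA around a gene's start where general transcription factors and RNA polymerase II assemble. Active promoters are usually free of nucleosomes just upstream of the start, and many lie in CpG islands, stretches rich in G, C and the CpG dinucleotide that are accessible in most cell types. Promoters that open only in some cells tend to be poorer in CpG and to bind regulated factors such as AP-1, the dimer of Fos and Jun family proteins, whereas promoters of housekeeping and cell cycle genes often hold sites of NF-Y, Sp1 and ETS factors.

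The bases upstream of 6 of these promoters are printed because the results below turn on them. Mcm3, Mcm10, Hltf and Depdc1a were among the strongest promoters in both lists, Zfp951 was the one with the largest difference toward Dll1+, and Prss46 the one with the largest difference toward Dll1−. Each line gives the 120 bases before the annotated start, outside any annotated exon, read from the GRCm38 reference on the strand of the gene, with matches to the motifs of NF-Y (CCAAT), Sp and KLF factors (GGGCGG), ETS factors (CCGGAAG), AP-1 (TGACTCA) and the TATA box (TATAAA) on either strand in capitals.
Mcm3, chr1:20820313-20820432, minus strand: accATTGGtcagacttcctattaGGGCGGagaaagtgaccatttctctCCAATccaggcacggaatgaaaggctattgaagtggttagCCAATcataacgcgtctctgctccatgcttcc
Mcm10, chr2:5012792-5012911, minus strand: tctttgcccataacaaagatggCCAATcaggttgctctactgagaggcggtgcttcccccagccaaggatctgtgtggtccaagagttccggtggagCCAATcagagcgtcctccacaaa
Hltf, chr3:20057691-20057810, plus strand: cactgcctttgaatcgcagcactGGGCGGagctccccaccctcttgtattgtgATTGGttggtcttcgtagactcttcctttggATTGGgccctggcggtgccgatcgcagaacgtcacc
Depdc1a, chr3:159495313-159495432, plus strand: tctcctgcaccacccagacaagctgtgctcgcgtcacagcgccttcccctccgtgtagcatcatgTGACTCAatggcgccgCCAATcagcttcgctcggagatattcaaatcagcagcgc
Zfp951, chr5:104860071-104860190, minus strand: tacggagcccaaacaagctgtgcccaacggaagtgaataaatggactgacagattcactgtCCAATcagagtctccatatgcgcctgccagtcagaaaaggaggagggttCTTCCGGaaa
Prss46, chr9:110849418-110849537, plus strand: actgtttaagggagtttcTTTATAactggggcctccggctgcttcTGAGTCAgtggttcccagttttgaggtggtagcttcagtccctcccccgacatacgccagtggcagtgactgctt

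The Mcm3 promoter held 3 matches to the NF-Y motif, beginning 32, 72 and, on the opposite strand, 117 bases upstream of the start. The Mcm10 promoter held matches beginning 23 and 98 bases upstream, and Hltf held them 36 and 67 bases upstream on the opposite strand. In Depdc1a an NF-Y match 39 bases upstream lay close to an AP-1 match 55 bases upstream. Prss46 had no NF-Y match in its printed bases but an AP-1 match on the opposite strand 75 bases upstream.

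Promoters open in both lists were strong in both. Strength was the highest fold enrichment over local background among the rows of a list in a region, turned into a percentile among all 79153 regions open in both lists, so that a percentile of 50 marks the median shared region in either list. The median promoter stood at percentile 71.8 in the Dll1+ list and at percentile 74.1 in the Dll1− list, where the 64913 shared regions away from promoters had medians of 45.6 and 45.3. In fold enrichment the promoter medians were 11.01 in Dll1+ and 11.3 in Dll1−, with quartiles of 6.91 and 15.3 in Dll1+ and of 7.00 and 15.7 in Dll1−. Among the strongest 10% of shared regions were 21.8% of the promoters by the Dll1+ list and 24.2% by the Dll1− list, against 7.404% and 6.88% of the other shared regions.

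Reads at the strongest summit, which could be recovered from the deposited values, had medians of 128 in Dll1+ and 218 in Dll1− for promoters, against 48 and 78 for other shared regions. The Dll1− list is deeper, with a genome-wide background of 7.20 reads against 3.74 in Dll1+, a ratio of 1.93. Intervals given below for reads and shares are 95% intervals that cover counting error only.

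Strength ranks followed each other closely between the lists. Across the 14240 promoters the log2 fold enrichments of the lists had a Pearson r of 0.942 and a Spearman rho of 0.950, against 0.809 and 0.796 across other shared regions. These points share the pooled libraries, their depth and the base composition of the regions, so the coefficients describe the lists and carry no test. The percentile difference, Dll1+ minus Dll1−, had a median of -1.04 points, with quartiles of -5.90 and 2.62, and 77.1% of promoters lay within 10 points against 51.5% of other shared regions.

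**Figure D1:**
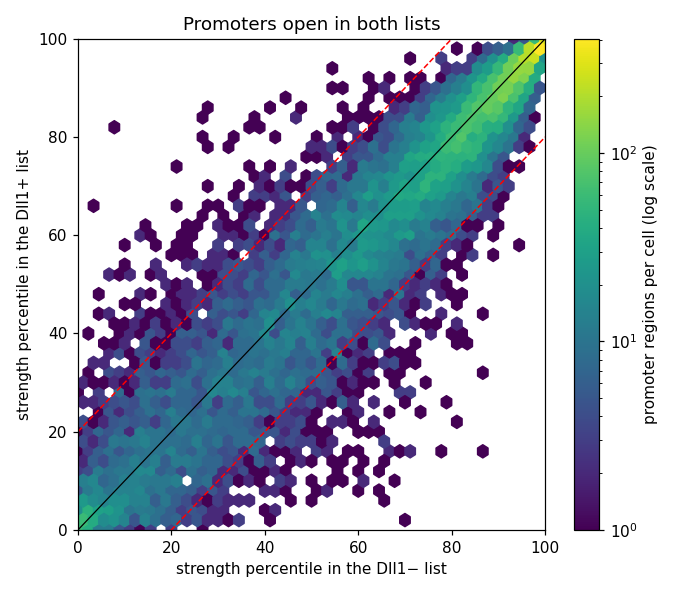
Strength percentile of each of the 14240 promoters in the Dll1+ list (vertical axis) against the Dll1− list (horizontal axis), with color giving the number of promoters per hexagon on a log scale. The black line marks equal percentiles and the dashed lines a difference of 20 points, outside which lay 319 promoters ranked higher in Dll1+ and 536 ranked higher in Dll1−.

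The 10 promoters with the highest smaller percentile belonged to genes with varied roles. Mcm3, a subunit of the replicative helicase, had fold enrichments of 32.3 in Dll1+ and 31.6 in Dll1−, from 565 and 883 reads. Mcm10, a factor that helps to activate that helicase, had 29.9 and 31.3, from 293 and 539 reads. Cdc25c, a phosphatase that triggers entry into mitosis, had 34.0 and 32.0, from 432 and 775 reads.

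Both lists placed these promoters within a fraction of a point of each other, above percentile 99.9. Depdc1a had fold enrichments of 34.0 in Dll1+ and 35.2 in Dll1−. Hltf, a translocase that remodels stalled replication forks, had 30.3 and 31.3. A region with starts of Cep128, which encodes a centriole protein, and Tshr, the receptor for thyroid stimulating hormone, had 32.8 and 32.0.

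The others of the 10 were 2610008E11Rik, Gm14325, the zinc finger gene Zfp960 and, at the top, Gm20594. Gm20594 had fold enrichments of 46.4 and 47.2, from 673 and 1052 reads. Its 385 bp region matched the mitochondrial genome over 319 bp, 82.9% of its length, at 90.3% identity, and whether reads of mitochondrial DNA were placed there was not tested. It was the only one of the 14240 promoters with such a match. All of the 10 except Gm20594 and the region of Cep128 and Tshr held an NF-Y motif, CCAAT, within 100 bp of the strongest summit, as the printed bases of Mcm3, Mcm10, Hltf and Depdc1a show. Reads at genes of near-identical families, among them many zinc finger genes, may likewise be split between copies.

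A promoter was counted as ranked differently when its percentiles differed by at least 20 points. By this rule 319 promoters (2.24%, interval 2.01 to 2.496%) ranked higher in Dll1+, where 9.77% of all shared regions did. In the other direction 536 promoters (3.76%, interval 3.46 to 4.09%) ranked higher in Dll1−, where 9.44% of all shared regions did. Ranked among the promoters alone, 294 were higher in Dll1+ and 292 higher in Dll1−, and ranked among all regions of each list's own, 146 were higher in Dll1+ and 1084 higher in Dll1−, so the balance of the directions depends on the set in which the ranks are taken.

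The share of differently ranked promoters was below that of other shared regions of like strength. Shared regions were split into 5 equal classes by their mean percentile, and in the third class 5.76% of promoters ranked higher in Dll1+ and 9.93% higher in Dll1−, against 17.2% and 16.7% of other regions. In the strongest class, which held 5965 promoters or 41.9% of all, 3 ranked higher in Dll1+ and 11 higher in Dll1−, or 0.0503% and 0.184%, against 1.33% and 0.983% of other regions. With classes made from the reads at the summits the third class gave 5.82% and 7.51% of promoters, against 13.1% and 12.6% of other regions. The gap was smaller in the class with the fewest reads, with 9.005% of promoters higher in Dll1+ and 9.60% higher in Dll1−, against 14.3% and 10.9% of other regions.

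**Figure D2:**
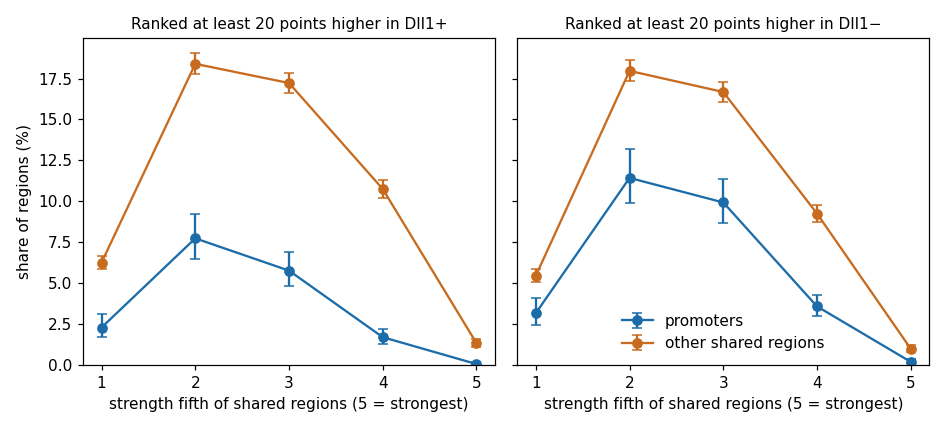
Share of regions ranked at least 20 points higher in Dll1+ (left) and in Dll1− (right) in each of 5 strength classes of shared regions, for promoters and for other shared regions, with 95% Wilson intervals. Promoters lie below the other regions in every class and in both directions.

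Reads at the summits were recovered from the same fold enrichments that set the ranks, so they describe how many reads lie behind the differently ranked promoters and are no separate evidence of a difference. The Dll1+ list gave a median of 38.0% of the reads of both lists over all shared regions and 37.1% over promoters. For promoters ranked higher in Dll1+ the median was 50%, and in 228 of the 319 the interval of the share lay above 38.0%. For promoters ranked higher in Dll1− the median was 26.4%, and in 448 of the 536 the interval lay below 38.0%. For the remaining promoters of either kind the interval included 38.0%, except 1 ranked higher in Dll1− whose interval lay above 38.0%. Their median reads were 55 in Dll1+ and 55 in Dll1− for the first kind and 38 and 111.5 for the second, below the promoter medians of 128 and 218, where all shared regions had 55 and 89.

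The promoters that differed most toward Dll1+ were at genes with varied roles. Zfp951, a zinc finger gene, stood at percentile 81.0 in Dll1+ and 7.89 in Dll1−, from 61 reads (interval 46.7 to 78.4) and 27 reads (17.8 to 39.3). Its accessible stretch covered 765 bp with 3 summits in Dll1+ and 150 bp with 1 summit in Dll1−. Scn1a, a sodium channel of neurons, stood at 84.8 and 25.8, from 66 and 40 reads.

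Sulf1, an extracellular sulfatase that edits heparan sulfate, had a pair of promoters in this group. The region with its midpoint 993 bp downstream of a start stood at percentile 65.0 in Dll1+ and 3.21 in Dll1−, and the one 508 bp downstream at 78.6 and 27.9. A further Sulf1 region, which spans that start, leaned the other way. It stood at 8.56 in Dll1+ and 16.5 in Dll1−, from 25 and 53 reads. Itgb5, an integrin beta subunit, stood at 84.8 and 27.7, from 84 and 65 reads. For Itgb5 and for the pair of downstream Sulf1 promoters the reads in Dll1+ exceeded those in the deeper Dll1− list.

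Others of the 10 were Pllp, which encodes the myelin and epithelial membrane protein plasmolipin, with a difference of 53.1 points, Trim30d with 53.0 points, the protease inhibitor gene Spink8 with 48.3 points, and a region shared by Zfp934 and Zfp935 with 47.8 points. Pllp had 53 reads in Dll1+ and 36 in Dll1−, and Trim30d 60 and 41.

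Toward Dll1− the largest difference was at Prss46, a serine protease gene, at percentile 16.5 in Dll1+ and 87.5 in Dll1−, from 20 reads (interval 12.2 to 30.9) and 121 reads (100 to 145). Pcsk2, a protease that matures prohormones, stood at 2.61 and 70.9, from 13 and 91 reads. Tmem179 stood at 16.5 and 77.5, from 20 and 104 reads.

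Several of the 10 belong to genes best known in neurons or blood cells. Unc5d, a netrin receptor of migrating neurons, stood at percentile 5.54 in Dll1+ and 66.0 in Dll1−, and Rab3c, a GTPase of synaptic vesicles, at 31.1 and 86.9. Flt3, a receptor tyrosine kinase of blood progenitors, stood at 9.57 and 68.8, and Tlr6, a receptor for bacterial lipopeptides, at 16.5 and 71.3. The others were Sgsm1, Pla1a and Col18a1, the gene of collagen XVIII, with differences of -59.1, -56.0 and -53.7 points. All 10 had 26 or fewer reads at the Dll1+ summit.

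Promoters were wide and often held several summits. The bases covered had a median of 860 bp in Dll1+ and 834 bp in Dll1−, against 461 and 452 bp for other shared regions. More than 1 summit was called in 68.5% of promoters in Dll1+ and 63.8% in Dll1−, against 27.9% and 26.5% of other regions. The mean number of summits was 2.26 in Dll1+ and 2.09 in Dll1−.

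The Dll1+ list had the larger number of summits in 26.2% of promoters (interval 25.5 to 26.9%) and the Dll1− list in 13.4% (12.9 to 13.98%), while 60.4% had the same number. The corresponding shares of other regions were 12.03% and 9.74%. The gap depended on which rows were used, since the shares of promoters were 38.7% in Dll1+ and 5.22% in Dll1− with the same number of rows from each list, and 8.83% and 6.83% with the rows above each list's median. The Dll1+ list covered more bases in 55.01% of promoters (54.2 to 55.8%) and the Dll1− list in 44.3%, with a median difference of 11 bp. Among the 3719 promoters with 1 summit in both lists the Dll1+ list was wider in 49.6% (48.0 to 51.2%), with medians of 446 and 453 bp. The lists differ in depth and in the number of pooled samples, and the part of these in the numbers of summits was not tested.

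Width rose with the number of summits, while strength rose and then fell. In the Dll1+ list promoters with 1 summit had a median width of 467 bp and a median percentile of 51.3, those with 3 summits 1076 bp and 78.0, and those with 5 summits 1565 bp and 67.3. In the Dll1− list the corresponding medians were 510 bp and 61.4, 1101 bp and 77.8, and 1583 bp and 67.1.

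The largest numbers of summits were at Nr3c1, which encodes the glucocorticoid receptor, with 9 in each list over 2643 bp in Dll1+ and 2610 bp in Dll1−. Alyref2 and Galnt7, a glycosyltransferase of mucin type O-glycosylation, had 8 in each list. Phf2, a histone demethylase, had 7 in Dll1+ and 8 in Dll1−, and St6gal1, a sialyltransferase, had 9 and 6. The latter pair differed in rank between the lists, Phf2 by 26.7 points toward Dll1+ and St6gal1 by 20.2 points toward Dll1− (a difference of -20.2).

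The widest region, at Ppp2r3d, covered 3044 bp in Dll1+ and 3162 bp in Dll1−. Qk, an RNA-binding protein, covered 2621 and 2601 bp, and Ncoa2, a coactivator of nuclear receptors, 2472 and 2417 bp. Neither these nor Nr3c1 and Alyref2 differed between the lists by 20 points in strength.

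The strongest summits lay just upstream of the starts and at nearly the same base in both lists. The median summit was 46 bp upstream of the nearest protein-coding start in Dll1+ and 48 bp upstream in Dll1−, and 51.7% and 52.4% of summits lay within 100 bp of it. The strongest summits of the lists were a median of 11 bp apart, and 89.3% lay within 50 bp of each other.

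Promoters with starts on both strands had higher medians than those with starts on 1 strand. These 1141 regions had a median percentile of 83.4 in Dll1+ and 85.2 in Dll1−, against 70.3 and 72.4 for the 13099 with starts on 1 strand. They covered a median of 1020 bp in Dll1+ and 985 bp in Dll1−. Ranked higher by 20 points were 3 of them (0.263%) in Dll1+ and 23 (2.02%) in Dll1−, against 2.41% and 3.92% of the others. Of the 438 promoters on chromosome X 17 (3.88%, interval 2.44 to 6.13%) ranked higher in each list, against 2.19% in Dll1+ and 3.76% in Dll1− of those on autosomes.

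Base composition set promoters apart from other shared regions. In the 201 bp around the strongest summit promoters had a median GC content of 64.2% and a CpG ratio, observed over expected, of 0.770, against 49.8% and 0.213 for other shared regions. Strength did not follow GC content in 1 direction, since the median Dll1+ percentile over 5 equal classes of rising GC content was 53.8, 77.6, 79.8, 76.1 and 64.9. Width did follow it, with Dll1+ medians of 602 bp in the lowest class and 1018 bp in the highest and Dll1− medians of 591 and 1000 bp.

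At the level of genes, 13225 of the 21851 protein-coding genes, 60.5%, had a promoter open in both lists, and 7750 had no region of either list at a start. A RefSeq window from 250 bases before to 50 after the start was found for 16515 genes, of which 10319 had a promoter open in both lists. Of the 5155 genes with a CpG-rich window (CpG ratio of at least 0.75 and GC content of at least 55%) 93.4% had such a promoter, of the 4382 intermediate genes 83.8%, and of the 6978 CpG-poor genes (ratio below 0.48) 26.2%.

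Open CpG-poor promoters held the largest shares of differently ranked genes among the 3 CpG classes. By the strongest shared promoter of each gene, 1.85% of all 13225 genes ranked at least 20 points higher in Dll1+ and 3.26% at least 20 points higher in Dll1−. Among the 1831 genes with an open CpG-poor promoter the shares were 5.19% and 5.41%, and among the 4815 with a CpG-rich one 0.685% and 2.49%. Their median percentiles were 68.2 in Dll1+ and 68.4 in Dll1− for CpG-poor and 79.7 and 82.1 for CpG-rich promoters.

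Motif matches in the 201 bp around the strongest summit differed between promoters and other shared regions. For a promoter the summit of the list with the higher percentile was used, both strands were searched, and 19 motifs were counted, a match being a stretch of letters and not a bound site. GGGCGG, the box of Sp and KLF factors, was present in 58.3% of promoters and 7.55% of other shared regions, and CCGGAAG, bound by ETS factors, in 13.3% and 1.85%. CCAAT, bound by NF-Y, was present in 31.0% and 22.8%, and the AP-1 motif TGACTCA in 4.99% and 17.5%.

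Other motifs of general promoter factors were rarer but had the same order. AAGATGGCG, bound by YY1, was present in 2.04% of promoters and 0.182% of other shared regions, CGCATGCG, bound by NRF1, in 2.44% and 0.145%, and TGACGTCA, bound by CREB and ATF factors, in 3.02% and 0.585%. The order was opposite for ACATTCC, bound by TEAD factors, with 2.09% and 5.63%, for TGTGGTT, bound by RUNX factors, with 2.27% and 5.53%, and for the CTCF motif, with 1.26% and 5.06%. RBPJ, the factor through which Notch receptors act, had its motif GTGGGAA in 3.58% and 4.26%, and the motif of NF-κB was present in 3.72% and 2.68%.

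In the RefSeq windows, the Sp and KLF motif was present for 65.8% of genes with a promoter open in both lists, 48.0% of all genes and 15.6% of genes with no region of either list at a start. The ETS motif had the same order, with 17.9%, 12.3% and 3.01%. The TATA box had the opposite order, with 6.85%, 12.9% and 24.2%. The NF-Y motif was about equally frequent in these windows, with 38.6%, 38.7% and 39.5%.

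The NF-Y motif became more frequent with the strength of the promoters. From the weakest to the strongest of the 5 classes of shared regions it was present at the summits of 18.3%, 20.8%, 21.2%, 24.9% and 43.6% of promoters, while other shared regions stayed between 22.5% and 23.3%. Of the 2739 promoters among the strongest 10% of shared regions in both lists 53.5% (interval 51.6 to 55.3%) held it. The Sp and KLF motif rose from 36.7% to 66.3% and the ETS motif from 4.51% to 20.2% over the same classes.

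AP-1 matches were unevenly spread over the promoters that differed between the lists. The AP-1 motif was present at the summits of 100 of the 536 promoters ranked at least 20 points higher in Dll1− (18.7%, interval 15.6 to 22.2%) and 7 of the 319 ranked at least 20 points higher in Dll1+ (2.19%, 1.07 to 4.46%). Between these, from the Dll1− to the Dll1+ side, the share was 10.3% for a difference of 10 to 20 points, 4.13% and 3.51% for differences under 10 points, and 2.56% for 10 to 20 points toward Dll1+. Among the promoters whose summit lay within 250 bp of the nearest start it was 13.6% (10.5 to 17.5%) of 367 at the Dll1− end and 3.00% (1.38 to 6.39%) of 200 at the Dll1+ end.

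Of the 10 promoters that differed most toward Dll1−, those of Prss46, Tmem179 and Unc5d held the AP-1 motif near the summit, and of the 10 that differed most toward Dll1+ that of Zfp951 did. In shared regions away from promoters the motif was present in 40.8% of those at least 20 points higher in Dll1− and 4.83% of those at least 20 points higher in Dll1+. The Sp and KLF motif and the ETS motif were less frequent in promoters that differed by at least 20 points than in those within 10 points. Their shares were 45.1% and 8.96% on the Dll1− side and 31.7% and 5.64% on the Dll1+ side, against 61.1% and 14.8% within 10 points.

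**Figure D3:**
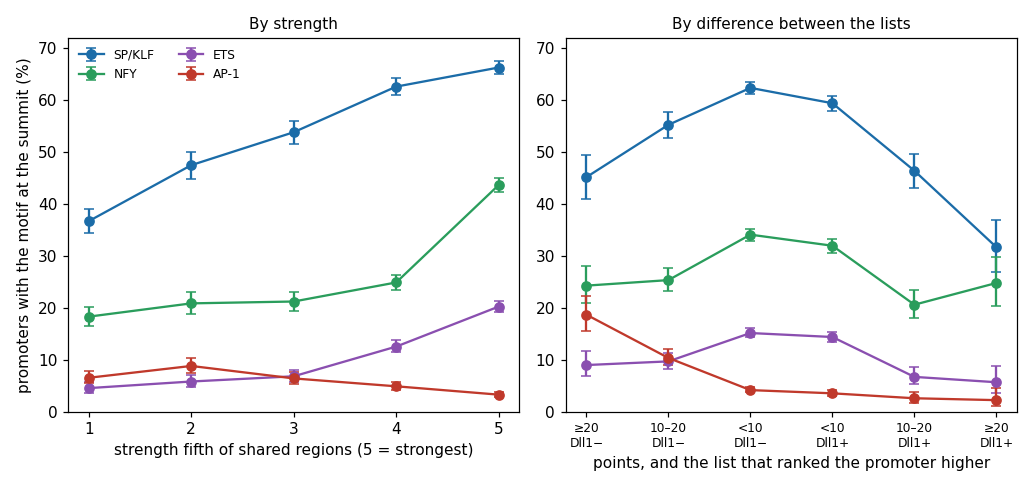
Share of promoters with a match to the SP/KLF, NFY, ETS or AP-1 motif within 100 bp of the strongest summit, by strength class of shared regions (left) and by the percentile difference between the lists (right), with 95% Wilson intervals. AP-1 matches fall from 18.7% at the Dll1− end to 2.19% at the Dll1+ end, and NFY matches reach 43.6% in the strongest class.

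The motifs also kept characteristic places relative to the start. Counted in steps of 20 bp, NF-Y matches were most frequent 61 to 80 bp upstream, with 12.8% of 7372 matches, and Sp and KLF matches 41 to 60 bp upstream, with 12.1% of 23104. ETS matches were most frequent 1 to 20 bp upstream, with 14.9% of 2727 matches, and TATA matches 21 to 40 bp upstream, with 21.7% of 876. YY1 matches lay mostly downstream, with only 30.3% of 479 matches upstream of the start. An even spread would place 6.67% of matches in each step, and AP-1 matches reached 10.3% in their most frequent step, 41 to 60 bp upstream.

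**Figure D4:**
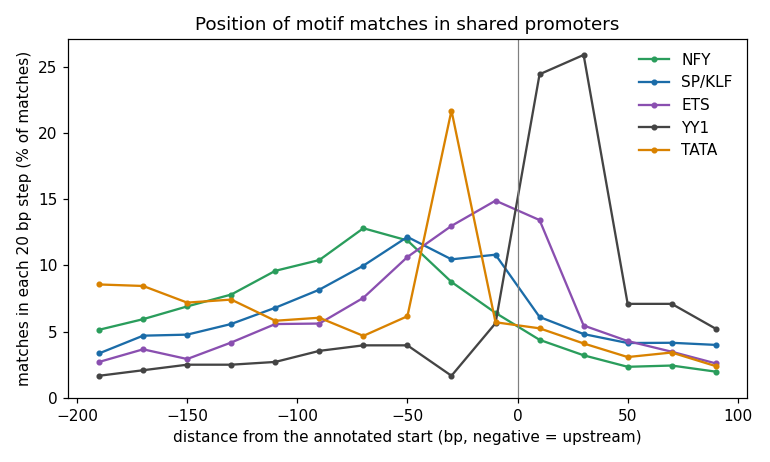
Position of motif matches around the nearest annotated start of the 14240 promoters, as the percent of each motif's matches in 20 bp steps (points), with negative distances upstream. TATA matches peak at 21.7% in the step 21 to 40 bp upstream and NFY matches at 12.8% in the step 61 to 80 bp upstream, while YY1 matches lie mostly downstream.

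Promoters of basic cell functions were nearly all open in both lists, beside 60.5% of all genes. All 31 proteasome genes, all 36 genes of translation initiation and all 36 genes of RNA polymerase II and its general factors had a promoter open in both, as did 79 of 82 ribosomal protein genes, 35 of 36 spliceosome genes and 42 of 43 entries for genes of oxidative phosphorylation. Genes are counted as entries of the annotation, in which Atp5o and, among the hypoxia genes below, Aldoa have 2 each. Their strongest promoters had median percentiles from 78.8 to 87.7 in Dll1+ and from 82.9 to 90.6 in Dll1−, where ribosomal protein genes had 84.9 and 84.6 and all genes had 78.0 and 80.0. At the other end, 9 of 1134 entries for olfactory receptor genes had such a promoter.

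In each of 4 of these lists, proteasome, translation initiation, spliceosome and oxidative phosphorylation, 1 gene ranked at least 20 points higher in Dll1−, or from 2.38% to 3.23% of the genes with an open promoter, near the 3.26% of all genes. Of the proteasome genes Psmc1, an ATPase of the regulatory particle, stood at percentile 65.3 in Dll1+ and 86.4 in Dll1−, and of the spliceosome genes Sf3b3 stood at 37.0 and 71.7, from 39 and 135 reads. For translation initiation and oxidative phosphorylation these were Eif3a and Ndufb8, at 56.0 and 76.3 and at 58.7 and 79.4. No other gene of these lists reached 20 points in either direction, and none of the ribosomal protein genes did.

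Cell cycle genes had a promoter open in both lists for 39 of 40, beside 60.5% of all genes, with median percentiles of 86.5 in Dll1+ and 85.4 in Dll1−. The NF-Y motif was present at the summit for 26 of the 39 (66.7%, interval 51.0 to 79.4%), against 33.4% of all genes with an open promoter. Only Rbl1, which encodes the pocket protein p107, differed by 20 points, at 37.1 in Dll1+ and 59.2 in Dll1−, or 2.56% of the 39 beside 3.26% of all genes in that direction. The cyclin gene Ccnd2 had a region in the Dll1− list only, as did 3.33% of all genes, while 0.586% of all genes had one in the Dll1+ list only. ETS matches were at the summit for 14 of 31 proteasome genes and 15 of 35 spliceosome genes, or 45.2% and 42.9%, against 15.7% of all.

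In the Notch pathway 36 of 43 genes had a promoter open in both lists, beside 60.5% of all genes, with a median difference of -0.28 points where all genes had -1.02. Maml2, a coactivator of the Notch transcription complex, stood at percentile 48.7 in Dll1+ and 27.5 in Dll1−, from 39 and 43 reads. Heyl, a repressor among the Notch targets, stood at 34.1 and 57.9, from 36 and 124 reads, and Neurl1a, a ubiquitin ligase of Notch ligands, at 14.1 and 39.7. These were the genes past 20 points, 2.78% of the 36 toward Dll1+ and 5.56% toward Dll1−, beside 1.85% and 3.26% of all genes. Notch1, Notch4, Hes5 and the glycosyltransferase gene Mfng had a region in the Dll1− list only and the ligand gene Jag2 in the Dll1+ list only, or 4 and 1 of 43 genes beside 3.33% and 0.586% of all genes. Other members were close together, such as the target Hes1 at 30.4 and 27.9, the ligand Jag1 at 68.7 and 66.4, and the receptor Notch2 at 71.9 and 79.5.

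The promoter of Dll1 itself, at chr17:15375292-15377192, had a fold enrichment of 5.72 in Dll1+ and 3.99 in Dll1−. Its reads were 498 (interval 455 to 544) in Dll1+ and 399 (361 to 440) in Dll1−, higher in Dll1+ although that list is the shallower one. Its percentile was 31.8 in Dll1+ and 14.02 in Dll1−, a difference of 17.8 points, which is under 20. It covered 1895 and 1876 bp with 5 summits in each list. The reporter carries further sequence from this locus in both groups, and reads of the copies cannot be told apart.

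NF-κB genes had a promoter open in both lists for 39 of 42, beside 60.5% of all genes. Nfkb1, which encodes the p105 precursor of p50, had a fold enrichment of 5.84 in Dll1+ and 7.67 in Dll1−, from 97 and 158 reads, and a difference of -18.7 points. By reads it stood at percentile 72.6 in both lists, so the difference was present by fold enrichment only. Cxcl2, a chemokine gene induced by NF-κB, was the only one of the list past 20 points, at percentile 22.9 in Dll1+ and 43.2 in Dll1−, which makes 2.56% of the 39 beside 3.26% of all genes. Rela, the p65 subunit, stood at 85.3 and 82.9, and Nfkb2 at 77.7 and 78.1.

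The AP-1 subunit genes had a median difference of -5.16 points where all genes had -1.02, with 11 of 16 below 0 where 7937 of all 13225 genes were. Jun stood at percentile 20.7 in Dll1+ and 43.9 in Dll1− and Atf3 at 29.6 and 51.1, and these were the 2 of 16 past 20 points, beside 3.26% of all genes. By reads Jun stood at percentiles of 99.6 and 99.8 and Atf3 at 91.5 and 96.3, so high that a difference of 20 points toward Dll1− is not possible on that scale. Fosl1, which encodes Fra-1, went the other way, at 91.8 and 79.3, from 147 and 225 reads.

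The 28 hypoxia genes had a promoter open in both lists for all 29 entries, beside 60.5% of all genes, with a median difference of -3.99 points where all genes had -1.02. Ldha, which makes lactate in glycolysis, stood at 48.0 in Dll1+ and 68.9 in Dll1− and was the only one past 20 points, or 3.45% of the 29 beside 3.26% of all genes. Vegfa, the vascular growth factor, stood at 51.9 and 31.9, a difference of 19.95 points. Of 22 genes of mammary progenitors 21 had such a promoter, with a median difference of -0.04 points, 10 above 0 and 11 below. Aldh1a3, an aldehyde dehydrogenase, was the only one past 20 points, at 90.5 in Dll1+ and 63.2 in Dll1−, which makes 4.76% of the 21 beside 1.85% of all genes. The lowest of the list was Sox9, a transcription factor of progenitors, at 56.8 and 72.9.

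**Figure D5:**
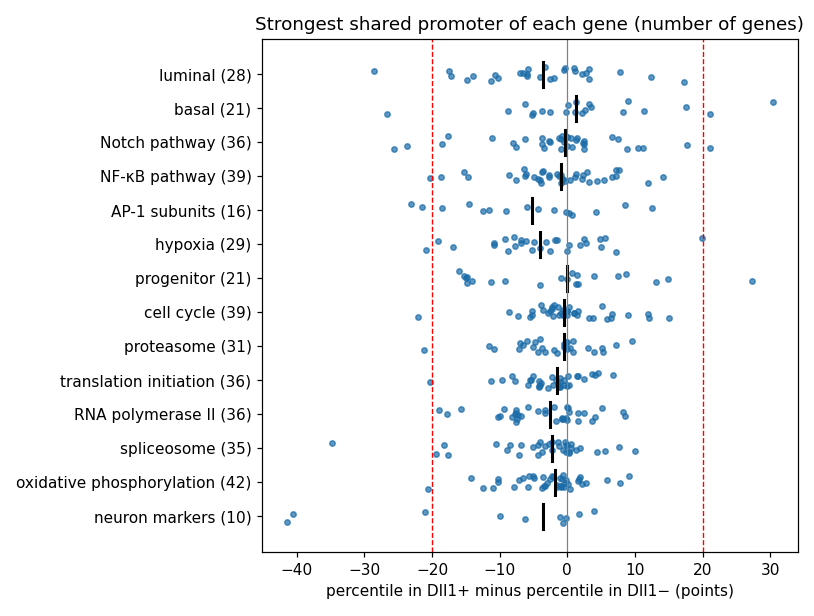
Percentile in Dll1+ minus percentile in Dll1− of the strongest shared promoter of each gene (points), by gene list, with the list's median as a black bar and the number of genes in brackets. The dashed lines mark 20 points, and the medians of these lists run from -5.16 for AP-1 subunits to 1.35 for basal genes.

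The labelled cell type was checked against markers. Luminal genes had a promoter open in both lists for 28 of 32, beside 60.5% of all genes, among them Krt8, Krt18, Krt19, Epcam, Cdh1, Elf5, Gata3, Foxa1 and Esr1, with a median difference of -3.66 points, 9 above 0 and 19 below. Krt8 stood at percentile 53.1 in Dll1+ and 56.4 in Dll1−. Muc1, a mucin of the apical membrane, was the only one past 20 points, at 34.6 and 63.2, which makes 3.57% of the 28 beside 3.26% of all genes. At the other end of the list was Lalba, the milk protein alpha-lactalbumin, at 59.0 in Dll1+ and 41.8 in Dll1−, from 86 and 89 reads.

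Of 28 basal genes 21 had such a promoter, 75% beside 60.5% of all genes. Acta2, Myh11, Krt17 and Cnn1 were among them. The basal markers Krt5, Krt14 and Trp63 had no region of either list at a start. Past 20 points were Tspan1, at 34.7 in Dll1+ and 4.29 in Dll1−, Tagln, an actin-binding protein of contractile cells, at 83.2 and 62.0, and Vim, the intermediate filament of mesenchymal cells, at 27.2 and 53.9. These make 9.52% of the 21 toward Dll1+ and 4.76% toward Dll1−, beside 1.85% and 3.26% of all genes. Of the other genes that the study names, Ntrk3 stood at 35.1 and 36.4 and Npy at 26.5 and 20.3, and Hepacam2 and Bglap2 had no region at a start.

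Markers of immune cells, endothelium, fibroblasts, erythroid cells and liver mostly lacked a promoter open in both lists. Those with one were 3 of 20 for immune cells, 3 of 15 for endothelium, 4 of 20 for fibroblasts, 3 of 14 for erythroid cells and 1 of 19 for liver, beside 60.5% of all genes. The defining markers Ptprc, Cd3e, Pecam1, Cdh5, Col1a1 and Klf1 had no region of either list at a start. Fibroblast genes had a region in the Dll1− list only for 6 of 20, beside 3.33% of all genes in the deeper of the lists, and the part of other cells in the promoters that rank higher in Dll1− was not tested.

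Neuron markers had a promoter open in both lists for 10 of 20 (interval 29.9 to 70.1%), beside 60.5% of all genes. Gad2 and Camk2a stood at percentiles of 14.1 and 16.5 in Dll1+ and 55.6 and 57.1 in Dll1−, from 19 and 20 reads against 68 and 68. Grin1 stood at 7.45 and 28.5, and the other 7 were under 20 points. These 3 of 10 stood beside 3.26% of all genes in that direction, and among erythroid markers Ank1 and Tal1 also passed 20 points toward Dll1−.

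Fold enrichment is taken over the local background, and at some promoters that background was raised. Its median over promoters was 2.96 times the genome-wide background in Dll1+ and 2.65 times in Dll1−, and 1.34 and 1.27 times over other shared regions. Among the highest values at promoters were those of Jun, with 29.1 and 18.6 times, Fos, with 27.8 and 16.8 times, and Zfp36, with 22.3 and 17.2 times. Dll1 had 23.1 and 13.8 times, Jund 19.6 and 14.6 times, and Per1 17.7 and 15.8 times.

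At these promoters rank by reads was far higher than rank by fold enrichment. Jun had 528 reads in Dll1+ and 921 in Dll1−, at percentiles of 99.6 and 99.8 by reads and of 20.7 and 43.9 by fold enrichment. Dll1 stood at percentiles of 99.5 and 94.2 by reads, a difference of 5.25 points toward Dll1+, beside 17.8 points by fold enrichment. Fam120b, in the same stretch of raised background as Dll1, had 1272 and 2111 reads and stood high on both scales, at percentile 99.998 by reads in both lists and at 96.02 and 95.04 by fold enrichment. These genes were chosen after their values were seen, apart from Dll1 and the AP-1 genes.

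Genes with several open promoters showed differences between their own starts. Of 1951 genes with at least 2 promoters open in both lists, 368 (18.9%) had promoters whose percentile differences lay at least 20 points apart. In 13 genes 1 promoter ranked at least 20 points higher in Dll1+ and another at least 20 points higher in Dll1−. Tns1, which encodes the adhesion protein tensin, was 1 of them, with a region at percentile 43.0 in Dll1+ and 12.8 in Dll1− and the neighboring region at 8.66 and 44.8. Hdac7, a histone deacetylase, had 4 such regions, of which 1 stood at 5.97 in Dll1+ and 50.1 in Dll1−, from 26 and 113 reads, and the others were under 20 points. Tns1 and Hdac7 were named for the distance between their promoters after the values were seen.

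At the edges of the selection the values were as follows. The 3 weakest promoters, at Tle4, Plekhg2 and Osbp, had fold enrichments between 1.79 and 1.97 in Dll1+ and between 1.64 and 1.89 in Dll1−. Just inside the limit of 1000 bp lay regions at Cbx5, Ehmt2 and Exog, with percentiles of 51.1, 20.9 and 39.2 in Dll1+ and 41.3, 15.4 and 45.7 in Dll1−. Just outside, 1001 bp from a start, lay regions near Aanat and Vars, with 78.5 and 4.34 in Dll1+ and 83.8 and 2.96 in Dll1−.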

How the data were processed

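ATAC-seq libraries of 3 Dll1+ and 4 Dll1− samples were processed by the authors with the ENCODE ATAC-seq pipeline, each group's replicates together, into 1 peak list for each group. The deposited lists give, for each row in the 10-column narrowPeak layout, a peak score, the fold enrichment at the summit over local background (a ratio), and −log10 p-value and −log10 q-value. The submitters' processing notes name mm10 and GRCm38. The aligner, the peak caller, their versions and the thresholds are not given in the sources used here. The lists hold 132872 Dll1+ and 148923 Dll1− rows.

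From these, overlapping or touching rows were merged, regions were assigned to starts of protein-coding transcripts (GENCODE M21, GRCm38), and strength, width (bases covered) and distinct summits were taken for each list. Reads at a summit were recovered from fold enrichment and −log10 p-value under a Poisson model, as the whole number of reads that gives the deposited value within 0.001, for 99.997% of Dll1+ and 99.9557% of Dll1− rows. Genome sequence was read from GRCm38, and promoter windows are those of RefSeq. Motifs were searched on both strands as exact letters, those of NF-κB and CTCF with ambiguous letters, and matches of different motifs may overlap. Mitochondrial matches were sought with BLASTN 2.17.0 at an E-value of 1e-10.

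Percentiles, a threshold of 20 points and Wilson 95% intervals were used, without tests, since the lists pool their samples. Named promoters were the 10 with the highest smaller percentile, the 10 with the largest difference in each direction, the 5 with the most summits, the 5 widest, the 3 weakest, the 3 on each side of the distance limit, examples of the 19 gene lists preferring large differences, and genes the study names. A few items that this rule selects are not reported here. Members, lists and motifs were chosen with earlier results of these data known. Alternatives changed the distance, overlap, row threshold, strength measure, ranking set and size of difference. Calculations were tested on simulated data and run in Python 3.11.15 with pandas 2.3.3, scipy 1.17.1 and pysam 0.24.0.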

Additional observations from a re-analysis of the deposited data

How the results depend on the processing

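No paired analysis was possible because each deposited list pools its samples. Of 76 values under alternative settings, 46 stayed within 1.5 times the count, or within the interval, given above, 30 moved further, and none changed which list was ahead in numbers of summits or in width. With starts within 500 bp, 57.7% of genes had a shared promoter, median percentiles were 75.7 (Dll1+) and 77.8 (Dll1−), and 55.9% of promoters were wider and 27.9% had more summits in Dll1+. With 2000 bp these values were 62.9%, 66.4, 68.4, 54.0% and 24.2%, and with rows above the list median 54.4%, 66.7, 69.8, 57.7% and 8.83% (6.83% in Dll1−). A reciprocal overlap of 50% gave 59.7% of genes. With the same number of rows from each list, 38.7% had more summits in Dll1+ and 5.22% in Dll1−. Median percentiles were 79.8 and 81.4 by −log10 p-value, 81.1 and 82.1 by reads, and 75.1 and 81.0 within each list's own regions, where 146 promoters ranked higher in Dll1+ and 1084 in Dll1−. Among promoters alone 292 ranked higher in Dll1−. Differences of 10 points gave 1218 and 2037 promoters, and of 30 points 95 and 148. The cause of these changes was not tested beyond the settings' own construction. Restricting the counts to strongest summits within 50 bp of each other, a setting chosen after seeing the data, gave 273 and 442.

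Each list pools its samples, so the spread between tumors is unknown. The lists differ in depth and in the number of samples pooled. Promoters ranked differently rest on fewer reads than other promoters, and in 91 of the 319 ranked higher in Dll1+ and 87 of the 536 ranked higher in Dll1− the interval of the read share included its median over all shared regions. Accessibility at a start does not measure transcription.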
